A study of Mus musculus with 12 samples.

Results

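Thymic lymphomas of mice that carry the MYC mutant S62A were set against thymic lymphomas that carry the mutant T58A, in poly(A) RNA, across all genes. The members are 6 of the 12 libraries of the series, chosen by their titles: 3 S62A lymphomas and 3 T58A lymphomas, numbered 1 to 3 in the order of deposit, which pairs nothing. Each tumour was labelled as spontaneous and as T lymphocytes of the thymus expressing one ectopic MYC mutant only. The other libraries are 3 of control thymic tissue, labelled as T lymphocytes expressing endogenous MYC only, and 3 of splenomegaly masses, whose label names B as well as T lymphocytes and both ectopic S62A and endogenous MYC. No source used here gives the promoter or Cre that drives the ectopic MYC, the strain or age of the mice, or whether each library came from its own animal. Lymphomas of T58A all carry the title code H and those of S62A the code I, so code and mutant cannot be told apart.

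MYC is a transcription factor that binds DNA with MAX and drives genes of growth, and its protein is normally short-lived. Phosphorylation of serine 62 by growth-signalled kinases stabilizes the protein and primes threonine 58 for the kinase GSK3, after which the phosphatase PP2A removes the first phosphate and FBXW7 marks the protein for destruction. Alanine at 58 removes the signal for destruction, and alanine at 62 removes the priming site. The window of the mouse gene that holds both residues is shown because the groups differ there by their labels. It lies in exon 2 of Myc (GRCm38, chr15:61987687-61987713, plus strand, reference sequence, codons 56 to 64), with codon 58 (threonine) and codon 62 (serine) in capitals.
Myc codons 56 to 64: cttcccACCccgcccctgTCCccgagc

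Depth in the 6 lymphoma libraries ran from 14172274 to 18376634 reads summed over genes, and each held reads of 15650 to 16931 of the 24478 gene symbols. Values are CPM, read counts scaled to library size with TMM factors, and per-library values are given in the order of libraries 1, 2 and 3. The T cell label was checked against its defining markers. Among 18 pan T cell genes no member passed the test between the lymphoma groups, but S62A lymphoma 3 stood apart: Cd3g, a chain of the T cell receptor complex, stood at 199.6, 102 and 11.3 CPM in S62A and 90.6, 91.2 and 116 CPM in T58A lymphomas. The mean level of the list in S62A lymphoma 3 was 6.15 log2 CPM, below every other lymphoma and close to the splenomegaly masses (5.93 to 6.09). Summed over the list, the same library held 8548 CPM, against 1386 to 1527 CPM in the masses. Of single members, Lck and Thy1 were present at 479 and 1594 CPM in S62A lymphoma 3, while Cd3g was low there. Libraries of one group were uneven in single genes: of the genes with at least 20 CPM in a library, 189 of 8981 differed 10-fold or more within S62A lymphomas and 120 of 9083 within T58A lymphomas. The biological coefficient of variation, as a common value over genes, was 44.9% within S62A and 40.9% within T58A lymphomas, against 33.9% over all 12 libraries with group in the fit.

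Myc itself (chromosome 15 from 61816896 to 61821916, mm9) was expressed in both groups. It stood at 159, 134 and 137 CPM in T58A lymphomas and at 158, 203 and 157 CPM in S62A lymphomas. The ranges overlap, and the difference did not pass the test (log2 fold change 0.27 ± 0.13, SE; adjusted p = 0.225). Reads of an ectopic copy and of the endogenous gene were not told apart.

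Genes that separated the lymphomas were more often lower than higher in S62A. With all 12 libraries in edgeR's quasi-likelihood test, an adjusted p of 0.05 was passed by 492 of 15606 genes (3.15%), 134 of them higher (0.859%) and 358 lower (2.29%) in S62A lymphomas. The differences were larger among the lower genes: their median log2 fold change was −2.12, and 316 of them fell below −1, against a median of 0.84 and 51 genes above 1 among the higher genes. In 489 of the 492 called genes no library of one group reached into the range of the other, which held for 21.1% of all genes tested, a measure from the same contrast. Btla and Cr2, lymphocyte surface genes, are among the 3 that overlapped, with T58A lymphoma 3 among the S62A libraries. The lowest adjusted p was 0.00658, for Dsc2. With library size in place of the TMM scaling the split was 86 higher and 456 lower (84.1% lower, against 72.8%), and this moved the median of all genes from −0.01 to −0.08.

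The number of genes that passed differed between fits. With only the 6 lymphoma libraries in the fit, edgeR called 0 genes, with 2045 at an unadjusted p under 0.05, while DESeq2 on the same 6 called 184 higher and 422 lower. Each lymphoma moved the counts when left out: 140 genes were higher and 227 lower without S62A lymphoma 1, 110 and 157 without S62A lymphoma 2, and 78 and 287 without S62A lymphoma 3. Without T58A lymphomas 1, 2 and 3 in turn the counts were 211 and 572, 33 and 106, and 69 and 482.

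Of 60 called genes that the naming rules chose, 25 passed without each lymphoma in turn, 9 of them higher and 16 lower. The higher ones were Bcar3, Mapk8, Glo1, Limch1, Mier1, Arhgap29, Zfp664, Klhl7 and Eif5a2. The lower ones were Dsc2, Clu, Gas1, St14, Mndal, Fzd10, S100a8, Mx2, Pax5, Krt5, Ltbp2, H2-Oa, Mef2c, Ltbp1, Lmo2 and Ngp. The other 35 lost their call without at least 1 library. By library, 29 named genes were lost without T58A lymphoma 2, 26 without S62A lymphoma 2, 24 without S62A lymphoma 1 and 6 without T58A lymphoma 1.

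**Figure D1:**
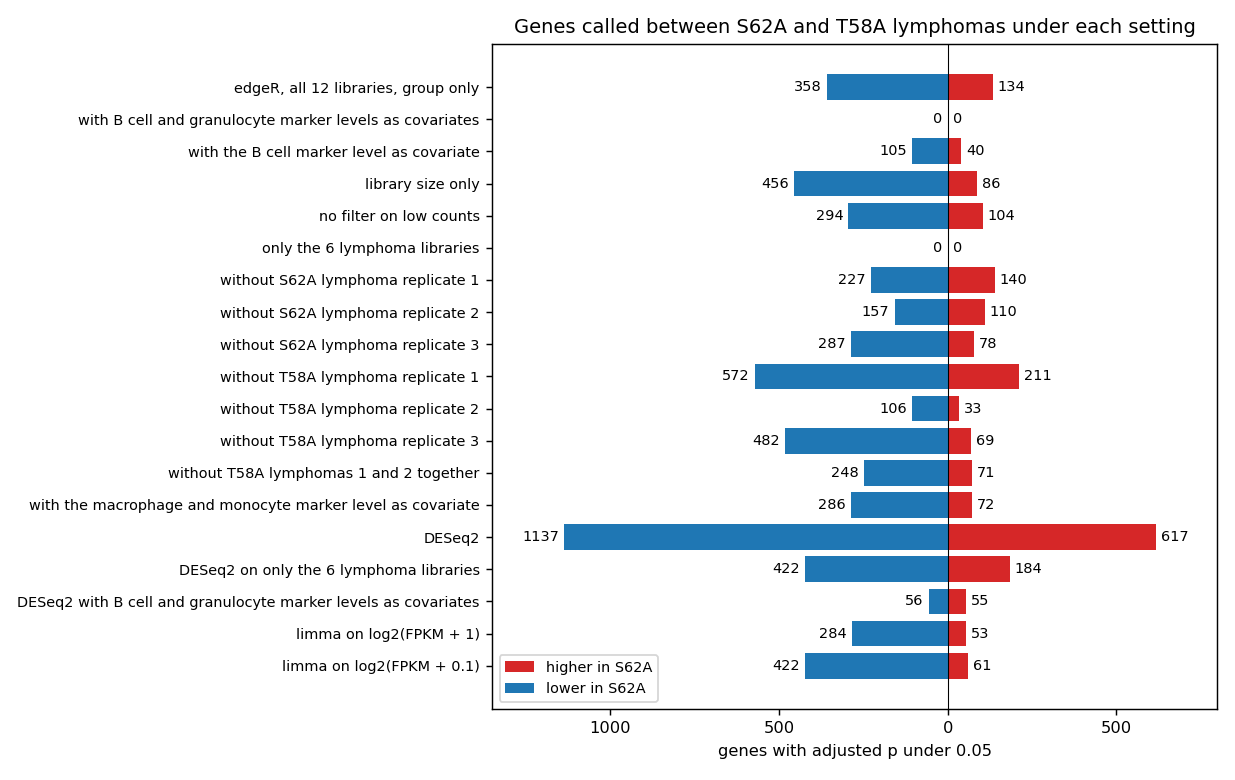
Number of genes with an adjusted p under 0.05 between S62A and T58A lymphomas under each setting, with bars to the right for genes higher in S62A and to the left for genes lower in S62A (both counted from 0). Lower genes outnumber higher ones in every plotted setting with calls, from 358 against 134 with all 12 libraries to 56 against 55 in DESeq2 with both marker levels as covariates, and 2 edgeR settings call none.

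Markers of B cells were unequal among the T58A lymphomas themselves. The mean level of the 19 B cell genes was 4.91, 5.46 and 2.22 log2 CPM in T58A and 1.72, 2.07 and 2.03 in S62A lymphomas, so that T58A lymphomas 1 and 2 stood high and T58A lymphoma 3 stood just above the S62A libraries. Control tissue lay at 3.25, 3.19 and 3.27 and the splenomegaly masses at 7.36, 7.59 and 7.30. Of the 19 genes 0 were higher and 9 lower in S62A (median log2 fold change −3.23, against −0.01 over all genes tested). Cr2, a complement receptor of B cells, stood at 12.8, 27.2 and 0.92 CPM in T58A and 1.08, 0.0718 and 0.0667 CPM in S62A lymphomas (−5.00 ± 1.10, adjusted p = 0.037). T58A lymphoma 3 lay within the S62A range. Without it 16 of the 19 genes were lower, and without T58A lymphoma 2 only 1 was; without S62A lymphomas 1, 2 and 3 in turn 2, 1 and 3 were.

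The B cell genes with the lowest adjusted p followed the same order of libraries. Pax5, the transcription factor that fixes B cell identity, stood at 5.14, 6.82 and 0.863 CPM in T58A lymphomas and had 3 reads in all S62A lymphomas together (0, 0.216 and 0 CPM), a ratio of 67.7 (95% counting interval 22.9 to 330.4). Fcrla, an Fc receptor-like protein of B cells, stood at 13.2, 16.6 and 1.61 against 0.573, 1.37 and 0.867 CPM (−3.49 ± 0.68, adjusted p = 0.0278). Its groups did not overlap, but T58A lymphoma 3 was close to the S62A libraries. Not all members of the list were low: Pou2af1, a coactivator of octamer factors in B cells, stood at 1010.5, 202 and 1532 CPM in S62A and 374, 239 and 65.1 CPM in T58A lymphomas, without passing the test (2.02 ± 0.66, adjusted p = 0.108). Cd72 was at 130.4, 153 and 15.5 against 207, 71.7 and 20.4 CPM.

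The mean level of granulocyte markers separated the groups without overlap. Their mean level over 18 genes was 3.08, 1.89 and 2.39 log2 CPM in T58A and −0.92, −0.95 and −0.85 in S62A lymphomas, and 2.83, 2.42 and 2.12 in control tissue. Of the 18 genes 0 were higher and 9 lower in S62A (median −5.22, or −4.70 with the 4 members at 0 reads in S62A set at their bounds). S100a8 and S100a9 form the calcium-binding protein calprotectin of neutrophils. S100a8 stood at 62.5, 21.3 and 66.4 CPM in T58A and 0.636, 0.934 and 2.4 CPM in S62A lymphomas (−5.23 ± 0.71, adjusted p = 0.0165), and S100a9 at 58.1, 24.8 and 67.7 against 0.764, 1.01 and 2.8 CPM (−5.04 ± 0.90, adjusted p = 0.0226). Every T58A library exceeded every S62A library. Without each lymphoma in turn, 2 to 7 members of the list were lower, the fewest without S62A lymphoma 2.

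Several genes of secreted granulocyte proteins were at or near 0 in S62A lymphomas. Ngp, a neutrophil granule protein, stood at 34.5, 9.53 and 34.2 CPM in T58A and 0, 0 and 0.533 CPM in S62A lymphomas (adjusted p = 0.0199). Elane, neutrophil elastase, had no read in any S62A lymphoma against 7.79, 1.07 and 2.59 CPM in T58A and was at least 58.3-fold lower, with a floor of 3 counts over the 3 libraries (adjusted p = 0.0307). Retnlg, a resistin-like protein of neutrophils, was likewise without reads and at least 38.5-fold lower. Of the 18 members 9 were not called, and in some of these the groups overlapped. Mmp9 stood at 47.2, 8.05 and 6.13 CPM in S62A and 7.45, 20.5 and 10.2 CPM in T58A lymphomas, and Csf3r at 10.8, 14.5 and 2.27 CPM in S62A and 16, 7.67 and 4.31 CPM in T58A lymphomas. Which cells supplied these reads was not tested. In bulk tissue, fewer cells of a type and less RNA per cell cannot be told apart.

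**Figure D2:**
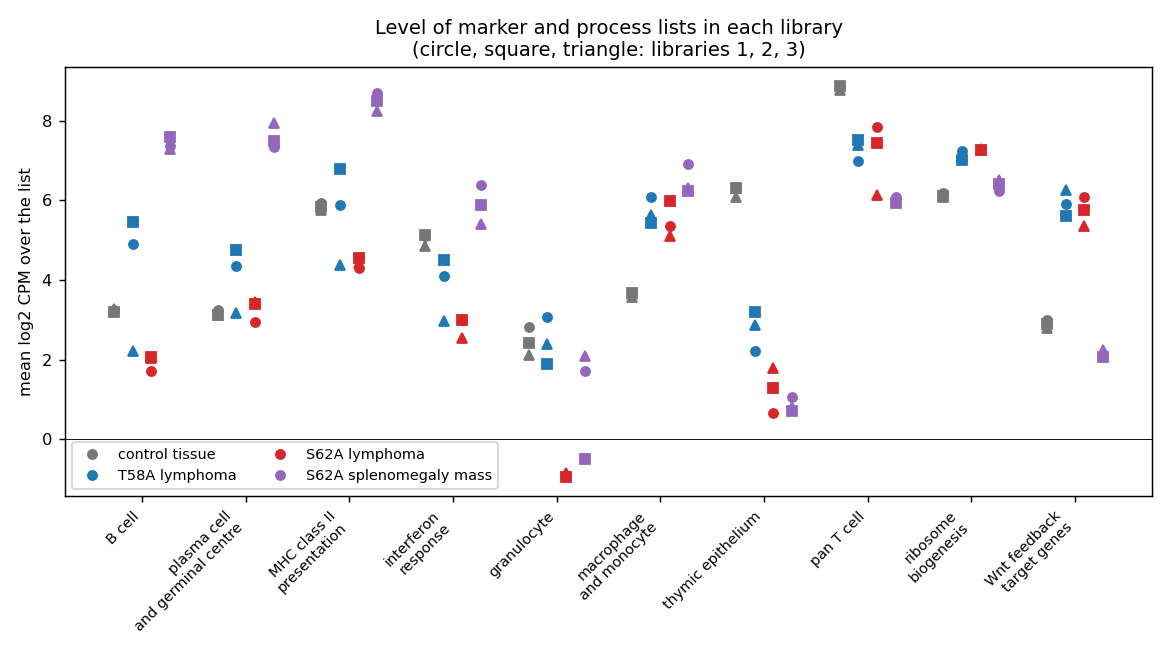
Mean log2 CPM over the tested genes of 10 marker and process lists (vertical axis) in each of the 12 libraries, with colour for the group and shape for the library. B cell levels reach 4.91 and 5.46 in T58A lymphomas 1 and 2 and lie between 1.72 and 2.22 in the other 4 lymphomas, whereas granulocyte levels lie at 1.89 or above in T58A lymphomas and below 0 in all S62A lymphomas.

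Further cell types differed in level too. Mean levels did not overlap and were lower in S62A lymphomas for adipocyte genes (3.70, 2.46 and 1.74 log2 CPM in T58A and 0.28, 0.79 and 0.93 in S62A) and erythroid genes (1.43, 1.63 and 2.79 and 0.57, 1.07 and −0.05). The same held for endothelium (3.59, 4.05 and 3.81 in T58A and 2.85, 2.98 and 3.07 in S62A) and for megakaryocytes and platelets (0.97, 1.37 and 1.87 and −0.10, 0.70 and −0.08). Of these 4 lists, of 12, 12, 14 and 6 tested genes, the last 2 had 1 member called each. Macrophage and monocyte genes had 0 of 22 members called, with levels from 5.43 to 6.08 log2 CPM in T58A lymphomas and from 5.12 to 6.0 in S62A lymphomas. Natural killer cell genes had 0 of 10 called, and their level in S62A lymphoma 1 (3.41, 0.89 and 0.75 over the 3 libraries) exceeded that of the other lymphomas (1.19, 2.48 and −0.11 in T58A). Thymic epithelium genes had 0 of 20 members higher and 5 lower (median −1.65), at 2.21, 3.19 and 2.87 log2 CPM in T58A and 0.65, 1.30 and 1.79 in S62A lymphomas, all far below control tissue (6.32, 6.32 and 6.08). Without each lymphoma in turn 2 to 8 of its members were lower, the fewest without S62A lymphoma 2 or T58A lymphoma 2 and the most without T58A lymphoma 1. Of the 17 cell type lists, 11 had at least 1 member lower and 6 had no member called. Over all genes tested 2.29% were lower and 0.859% higher in S62A.

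Splenomegaly masses gave an outside measure of tissue rich in B cells and other admixed cells, since their comparison with control shares no library with the lymphoma comparison. Macrophage and monocyte genes were also higher in the masses (6.24 to 6.92 log2 CPM against 3.56 to 3.69 in control tissue), as were endothelium genes (5.10 to 5.86 against 2.84 to 3.28). Thymic epithelium and pan T cell genes were lower in the masses. The shares below therefore do not single out B cells. Between masses and control 3578 of 15606 genes (22.9%) were higher in the masses. They include 166 of the 358 genes lower in S62A lymphomas (46.4%, or 4.64% of the 3578) and 16 of the 134 genes higher in S62A lymphomas (11.9%, or 0.447%). The genes lower in S62A were thus above the background share and the genes higher in S62A below it.

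To separate admixture from other differences, the marker levels entered the fit as covariates. With the B cell level alone, 40 genes were higher and 105 lower in S62A, and 10 of the 134 higher and 66 of the 358 lower genes kept their call. With the B cell and granulocyte levels together edgeR called 0 genes, with 1211 at an unadjusted p under 0.05. DESeq2 with both levels called 55 higher and 56 lower, among them 2 of the 134 and 27 of the 358. The granulocyte level does not overlap between the lymphoma groups, and with group in the fit its slope rests on the spread of libraries within the groups.

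The direction of called genes changed little with the covariates. With both levels in the fit, 134 of 134 higher and 348 of 358 lower genes kept their sign, and 199 of the 492 had an unadjusted p under 0.05 with the same sign. The called B cell markers moved towards 0 with the B cell level alone, which is the mean of the list they belong to: Pax5 went from −5.83 to −3.29, Cr2 from −5.00 to −0.82 and Fcrla from −3.49 to −0.51. Of the granulocyte genes 3 kept their call in that fit and 6 lost it, with a list median of −5.35: S100a8 stood at −5.89 (adjusted p = 0.0172), and Elane lost its call (adjusted p = 0.0949). Without T58A lymphomas 1 and 2, T58A lymphoma 3 was assumed to vary like the other groups, and 71 genes were higher and 248 lower, with 14 and 131 of the called genes among them. There the B cell list had 0 of 19 members called (median −0.30) and the granulocyte list 3 of 18 lower (median −5.02).

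**Figure D3:**
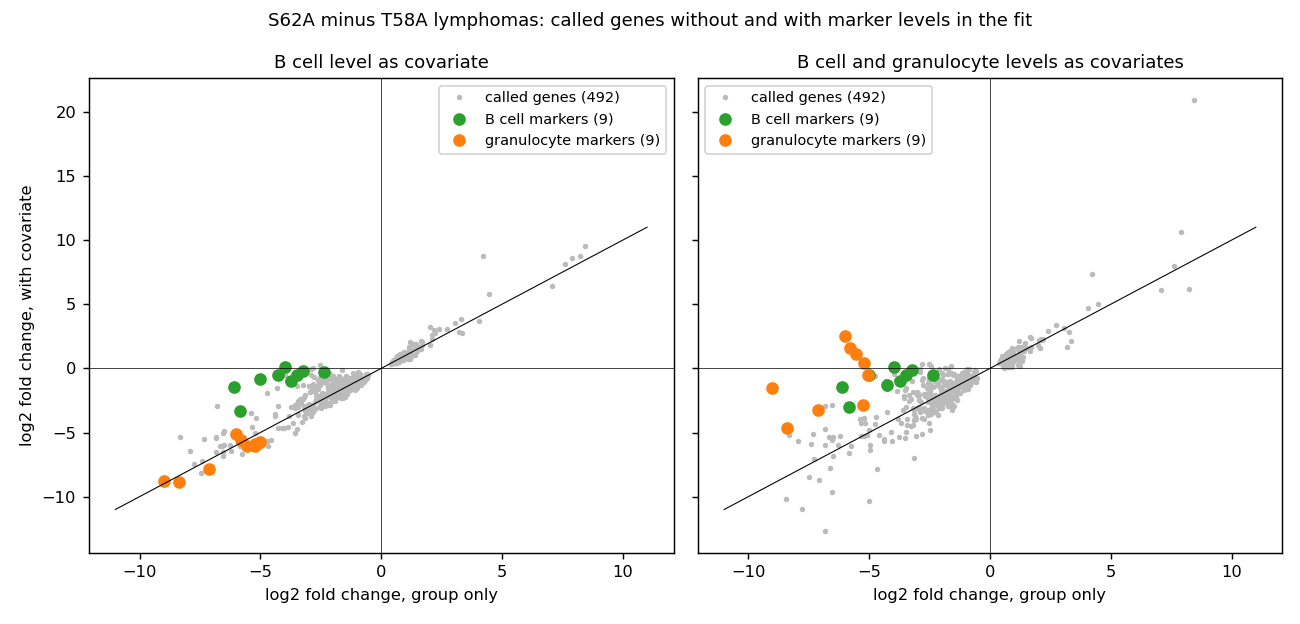
Log2 fold change of the 492 called genes, S62A minus T58A lymphomas, with group alone (horizontal axis) and with marker levels in the fit (vertical axis), left for the B cell level and right for the B cell and granulocyte levels, with the line of equal values. The 9 called B cell markers move towards 0 on the left while the 9 granulocyte markers stay near the line, and both sets leave the line on the right, where marker genes form part of the covariates themselves.

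Most of the next genes were those lower in S62A that kept their call with the B cell level in the fit, a rule chosen after the values were seen because no gene met the planned one of keeping it with both levels. Fzd10, a Frizzled receptor for Wnt proteins (chromosome 5 from 129106981 to 129109968), stood at 6.64, 108 and 105 CPM in T58A lymphomas and at 0.0636, 0.216 and 0.333 CPM in S62A lymphomas (−8.45 ± 1.05, adjusted p = 0.0106; −8.80 with the B cell level, adjusted p = 0.0159). T58A lymphoma 1 lay far below the other T58A libraries yet above all S62A libraries. In control tissue Fzd10 stood at 15.2 ± 1.87 CPM (SD, n = 3) and in the masses at 1.24 ± 0.431. DESeq2 with both levels called it too (adjusted p = 0.00168).

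Bmp4, a secreted ligand of the BMP family (chromosome 14 from 47003200 to 47010344), stood at 102, 99.1 and 237 CPM in T58A and 12, 1.65 and 0.333 CPM in S62A lymphomas (−4.96 ± 0.91, adjusted p = 0.0236). T58A lymphoma 3, with the fewest B cell reads of its group, had the highest Bmp4, while control tissue held 2.41 ± 0.341 CPM. With 1 lymphoma left out in turn, the edgeR adjusted p of Bmp4 ranged from 0.00463 to 0.0525. DESeq2 with both levels did not call Bmp4 (−6.09, adjusted p = 0.319), and DESeq2 with group alone gave it no p-value. Smad6, an inhibitor that BMP signals induce, stood at 2.48, 6.34 and 10.2 against 0.573, 0.718 and 1.4 CPM (−2.81 ± 0.61, adjusted p = 0.0353, and −3.38, adjusted p = 0.0573 with the B cell level). Gas1, a membrane coreceptor for Hedgehog proteins (chromosome 13 from 60275766 to 60278896), stood at 19.6, 31.7 and 40.3 against 2.48, 3.88 and 4.53 CPM (−3.07 ± 0.33, adjusted p = 0.00723). Gas1 was among the genes DESeq2 called with both levels (−3.96 in edgeR, unadjusted p = 0.00038; adjusted p = 0.00131 in DESeq2). The list of 19 Wnt feedback target genes, in contrast, had 0 members called (median −0.35), with levels of 5.90, 5.62 and 6.28 log2 CPM in T58A and 6.09, 5.76 and 5.35 in S62A lymphomas. Axin2, a feedback inhibitor of Wnt signals, stood at 297, 289.6 and 371 CPM in T58A and 422, 288 and 223 CPM in S62A lymphomas.

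Matrix and cell-shape genes were a further set. Ltbp1, which holds latent TGF-beta in the matrix, stood at 15.1, 45.4 and 42.1 CPM in T58A and 1.85, 4.81 and 4.87 CPM in S62A lymphomas (−3.16 ± 0.52, adjusted p = 0.0193), and its relative Ltbp2 at 34.2, 74.4 and 79.2 against 10.2, 15.6 and 18.2 CPM (−2.09 ± 0.31, adjusted p = 0.0166). Mylk, the myosin light chain kinase of smooth muscle, stood at 15, 24.1 and 48.3 against 6.49, 9.2 and 4.2 CPM (−2.14 ± 0.40, adjusted p = 0.0239). In each of the 3, T58A and S62A libraries did not overlap. The levels of endothelium and adipocyte genes separated the same libraries, and their part in these differences, or in that of Bmp4, was not tested. Of 25 genes of TGF-beta and extracellular matrix 1 was higher and 2 lower (median −0.30): Ltbp1 and Smad6 were lower, and Smad2, which carries TGF-beta signals to the nucleus, was higher (98.2, 96.3 and 102 CPM in S62A against 77.9, 68 and 75; 0.42 ± 0.10, adjusted p = 0.0498). Thbs1 and Fn1 did not pass (−1.02 and −1.02).

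A few epithelial genes were lower in S62A as well. Krt5, a keratin of basal and medullary epithelium, stood at 79.7, 56.8 and 113 CPM in T58A and 3.5, 12.8 and 16.6 CPM in S62A lymphomas (−2.92 ± 0.44, adjusted p = 0.0171), and Pax1, a transcription factor of thymic epithelium, at 6, 7.62 and 22.8 against 0.573, 1.15 and 2.07 CPM (−3.26 ± 0.58, adjusted p = 0.0223). The other called members of that list were Epcam, Pax9 and Trp63 (−2.48, −3.12 and −2.40). Foxn1, the factor that defines thymic epithelium, was near 0 in both groups (0.346, 1.07 and 0.345 CPM in T58A and 0.0636, 0 and 1.07 in S62A), and so was Psmb11 of cortical epithelium (0, 0.107 and 0.115 CPM in T58A and 0.445, 0.359 and 0.133 in S62A). Summed over the list, levels ran from 515 to 621 CPM in T58A and from 243 to 486 CPM in S62A lymphomas, and the part of epithelial cells in these calls was not tested.

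A further 3 genes had the lowest adjusted p of the lower genes, beside Gas1. Dsc2, a cadherin of desmosomes (chromosome 18 from 20189134 to 20218055), stood at 6.12, 8.68 and 4.31 CPM in T58A and 0.636, 0.431 and 0.8 CPM in S62A lymphomas (−3.34 ± 0.32, adjusted p = 0.00658). Clu, the secreted chaperone clusterin (chromosome 14 from 66587320 to 66600385), stood at 137, 226 and 80.0 against 17.7, 13.1 and 17.4 CPM (−3.20 ± 0.35, adjusted p = 0.00723), and St14, the membrane protease matriptase, at 27.2, 22.4 and 10.4 against 2.74, 3.88 and 2.13 CPM (−2.78 ± 0.34, adjusted p = 0.00956). All 3 were higher in the splenomegaly masses (30.8 ± 1.58, 795 ± 204 and 87.7 ± 9.84 CPM; SD, n = 3) than in control tissue (17.3 ± 1.90, 28.4 ± 4.46 and 13.1 ± 1.21). The epithelial genes Krt5 and Pax1 ran the other way, with means of 0.0938 and 0.0531 CPM in the masses and 135 and 153 in control. The cells that supplied Dsc2, Clu and St14 were not tested. These 3 genes kept their calls with the B cell level in the fit (adjusted p = 0.0157, 0.0187 and 0.0343). These were named for an adjusted p under 0.01, which 7 genes reached, a rule added after the values were seen.

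**Figure D4:**
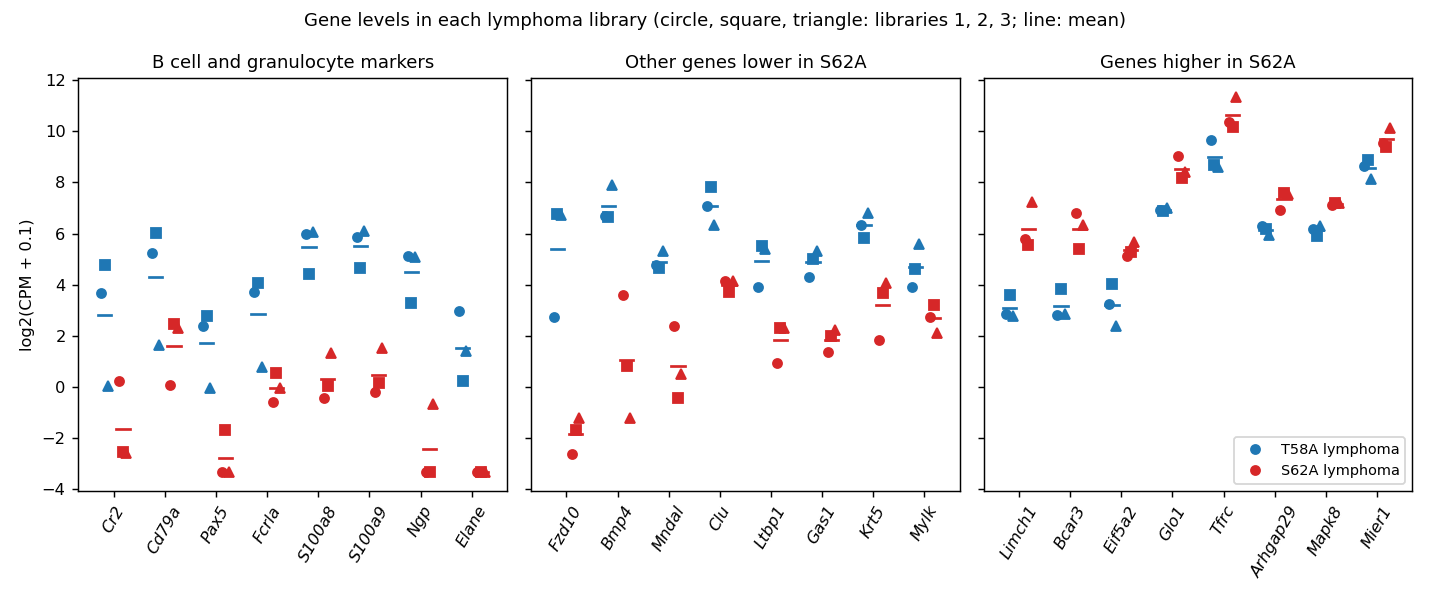
Level of 24 genes as log2(CPM + 0.1) in each of the 6 lymphoma libraries, with a horizontal line for each group mean. Cr2 and Cd79a show T58A lymphoma 3 among the S62A libraries, whereas the granulocyte markers and the genes of the middle and right panels separate all T58A from all S62A libraries.

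Several further cell type lists had 1 member called, each lower in S62A, where 3.15% of all genes tested were called and 2.29% were lower. Plvap of endothelium stood at 26.6, 45.8 and 30.7 CPM in T58A and 13.9, 17.5 and 20.3 CPM in S62A lymphomas (−0.99 ± 0.21, adjusted p = 0.0318), and Pdgfra, a growth factor receptor of fibroblasts, at 16.2, 28.7 and 22.3 against 11, 7.47 and 11.9 CPM (−1.14 ± 0.25, adjusted p = 0.037). Itgb3, an integrin of platelets and macrophages, stood at 5.54, 10.7 and 7.77 against 2.42, 3.02 and 2.2 CPM (−1.65 ± 0.30, adjusted p = 0.0236). These 3 genes were highest in T58A lymphoma 2, as was the level of the endothelium list. Ccr7, which guides mature T cells, B cells and dendritic cells to lymph nodes, stood at 14.7, 27.9 and 11.4 against 7.83, 4.6 and 6.4 CPM (−1.52 ± 0.36, adjusted p = 0.0487), and Bach2, a repressor in B and T cells, at 7.91, 6.07 and 2.47 against 2.23, 1.51 and 1.13 CPM (−1.75 ± 0.42, adjusted p = 0.0484). Btla, an inhibitory receptor of lymphocytes, stood at 37.5, 70.8 and 6.96 against 5.41, 6.54 and 8.07 CPM (−2.53 ± 0.59, adjusted p = 0.0457) and turned to 0.24 with the B cell level in the fit. None of the 6 genes kept its call in that fit, where Itgb3 stood at −1.52, Pdgfra at −1.07, Plvap at −0.73, Ccr7 at −0.74 and Bach2 at −0.58.

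Genes of early T cell progenitors and of Notch signalling were partly lower in S62A. Of 16 early double-negative thymocyte genes 0 were higher and 5 lower (median −1.11), and of 19 Notch target genes 0 were higher and 3 lower (median −0.20). With the B cell level in the fit 1 and 0 were lower (medians −0.74 and −0.05). The early double-negative list is not specific to thymocytes in these tissues. Its level was highest in the masses (4.88 to 5.03 log2 CPM), above control tissue (3.90 to 4.38), T58A lymphomas (2.77 to 3.75) and S62A lymphomas (2.09 to 2.51). Notch3, a Notch receptor of immature thymocytes, stood at 11.7, 24.9 and 22.4 CPM in T58A and 7.19, 6.61 and 5.53 CPM in S62A lymphomas (−1.61 ± 0.28, adjusted p = 0.0214, and −1.70, adjusted p = 0.0693 with the B cell level; adjusted p = 0.00956 in DESeq2 with both levels). Dtx1, a ubiquitin ligase that Notch induces and that B cells express too, stood at 4.33, 8.63 and 0.805 against 0.255, 0.287 and 0.133 CPM (−4.31 ± 0.80, adjusted p = 0.0239). Its order among the T58A libraries was that of the B cell level, with T58A lymphoma 3 still above every S62A library. With the B cell level in the fit Dtx1 stood at −1.54 (adjusted p = 0.292). Which cells supplied its reads was not tested. Notch1 was lower (−1.01 ± 0.22, adjusted p = 0.0371) at 17.7, 20.2 and 17 CPM in T58A and 10.2, 11.1 and 6 CPM in S62A lymphomas, far under the 282 ± 50.2 CPM of control tissue. Other Notch targets varied within S62A lymphomas: Il2ra, a chain of the interleukin 2 receptor, stood at 3.88, 41.3 and 500.2 CPM there and 7.68, 28.4 and 4.43 CPM in T58A (adjusted p = 0.118).

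Few transcription factors of progenitors and of development passed the test, and those were lower in S62A. Lmo2, a bridging protein of progenitor transcription complexes and a known T cell oncogene, stood at 41.5, 35.4 and 65.5 CPM in T58A and 19.9, 20.8 and 12.9 CPM in S62A lymphomas (−1.41 ± 0.26, adjusted p = 0.0237; −1.96 with the B cell level, adjusted p = 0.0172). Mef2c, a MADS-box factor of early lymphoid and B cells, stood at 30.1, 41.7 and 12.9 against 4.65, 7.26 and 5.73 CPM (−2.27 ± 0.37, adjusted p = 0.019; −0.98, adjusted p = 0.128 with the B cell level). Among T58A libraries Lmo2 was highest in T58A lymphoma 3 and Mef2c lowest there. Both were higher in the masses (128 ± 27.6 and 263 ± 66.3 CPM) than in control tissue (7.72 ± 0.476 and 6.56 ± 0.143; SD, n = 3). Of 24 Hox and developmental factor genes tested 0 were higher and 3 lower, Lmo2 and Meis1 among them. Meis1, a homeobox factor of progenitors, stood at 2.14, 4.69 and 3.91 against 0.954, 1.01 and 1.53 CPM (−1.61 ± 0.35, adjusted p = 0.037).

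Among the lymphomas, the levels of the MHC class II and interferon lists were high where the B cell level was high. Control tissue, with a B cell level of 3.19 to 3.27 log2 CPM, held class II genes at 5.76 to 5.93. Its interferon level of 4.85 to 5.14 was above that of every lymphoma. The masses held the highest level of each list. The MHC class II list had 0 of 16 members higher and 3 lower (median −1.43), with levels of 5.88, 6.79 and 4.37 log2 CPM in T58A and 4.30, 4.56 and 4.42 in S62A lymphomas. The interferon list had 0 of 32 higher and 2 lower (median −1.06), at 4.11, 4.51 and 2.98 log2 CPM in T58A and 2.54 to 3.0 in S62A lymphomas. The MHC class I list had 0 of 26 higher and 2 lower (median −0.69). These counts are small, and over all genes tested 2.29% were lower and 0.859% higher. In the first 2 lists T58A lymphoma 3 stood within the range of the S62A libraries. Without T58A lymphoma 3, 14 of the 16 class II genes were lower, and without T58A lymphoma 2 only 1 was. With the B cell level in the fit the 3 medians became 0.20, 0.14 and 0.25, and without T58A lymphomas 1 and 2 they were −0.05, −0.06 and 0.12. Dendritic cell genes were also high in T58A lymphomas 1 and 2. Their level was 3.42, 3.67 and 2.14 log2 CPM in T58A and 2.55, 2.51 and 2.44 in S62A lymphomas. Which cells supplied the class II and interferon reads was not tested.

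The called members also stood higher in T58A lymphoma 3 than in any S62A library, for H2-DMb2 by little (2.19 CPM against 0.891, 1.08 and 1.40). H2-Oa, which restrains peptide loading in B cells, stood at 12.2, 30.1 and 8.92 CPM in T58A and 2.42, 1.29 and 2.93 CPM in S62A lymphomas (−2.94 ± 0.45, adjusted p = 0.0171), and H2-Ob and H2-DMb2 were the other called class II genes (−2.90 and −2.77). Tap2, a peptide transporter, stood at 103, 147 and 99.8 against 75.4, 54.7 and 57.5 CPM (−0.90 ± 0.17, adjusted p = 0.0247), and Psmb9, a subunit of the immunoproteasome, at 43.6 ± 18.8 against 20.8 ± 1.13 CPM (SD, n = 3, edgeR log2 fold change −1.07 ± 0.23, adjusted p = 0.037). Mx2 and Oasl2, antiviral genes, were the called interferon genes: Mx2 stood at 2.89, 4.21 and 2.65 against 0.445, 0.647 and 0.6 CPM and Oasl2 at 16.6, 34.9 and 17.5 against 5.35, 4.6 and 7.07 CPM. Their log2 fold changes of −2.51 and −2.02 (adjusted p = 0.0166 and 0.0305) became −2.15 and −1.49 (adjusted p = 0.0704 and 0.204) with the B cell level. Mndal, an interferon-inducible gene with near-identical relatives and therefore uncertain, stood at 27.4, 24.8 and 39.4 against 5.15, 0.647 and 1.33 CPM and kept its call (adjusted p = 0.0227).

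The genes higher in S62A were mostly expressed in both groups at different levels. Glo1, the glyoxalase that detoxifies methylglyoxal from glycolysis (chromosome 17 from 30729807 to 30749604), stood at 520.1, 286 and 341 CPM in S62A and 120.4, 119 and 127 CPM in T58A lymphomas (1.64 ± 0.19, adjusted p = 0.00829). Mapk8, the stress kinase JNK1 (chromosome 14 from 34191085 to 34224210), stood at 138, 148 and 146 against 73.2, 60.3 and 79.1 CPM (1.02 ± 0.12, adjusted p = 0.00829). In both genes the T58A libraries were close together, and all S62A libraries exceeded them. With the B cell level in the fit they stood at 1.52 and 0.83 (adjusted p = 0.0566 and 0.0517).

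Signalling and cytoskeletal genes followed. Bcar3, an adaptor that binds the docking protein p130Cas (chromosome 3 from 122122698 to 122233100), stood at 111, 41.6 and 81 CPM in S62A and 6.99, 14 and 7.08 CPM in T58A lymphomas (3.05 ± 0.37, adjusted p = 0.00956; 0.0336 with the B cell level). Arhgap29, a GTPase-activating protein, stood at 121, 189.6 and 184 against 77.6, 72.3 and 61.8 CPM (1.22 ± 0.19, adjusted p = 0.0171). Limch1, an actomyosin regulator, stood at 55.1, 46.8 and 152 against 7.16, 12.1 and 6.73 CPM (3.28 ± 0.46, adjusted p = 0.0165). Groups did not overlap in any of these genes. Dclk2, a doublecortin-like kinase, stood at 39.1, 34.9 and 187 against 5.08, 9.48 and 13.8 CPM (3.20 ± 0.63, adjusted p = 0.0278), and at 2.81 with the B cell level it did not pass (adjusted p = 0.192).

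Genes of translation and transcription were also among the higher ones. Eif5a2, an isoform of the hypusine-bearing translation factor eIF5A (chromosome 3 from 28680233 to 28697768), stood at 34.5, 38.9 and 50.5 CPM in S62A and 9.35, 16.1 and 5.12 CPM in T58A lymphomas (2.02 ± 0.38, adjusted p = 0.0269; 3.25, adjusted p = 0.0172 with the B cell level). Of the 134 higher genes it was 1 of 2 that were also among the 55 called higher by DESeq2 with both levels (adjusted p = 0.0212). The other was Rpl15, a ribosomal protein with near-identical pseudogenes and therefore uncertain, at 139.9, 106 and 162 against 77.3, 66.5 and 34.3 CPM. Mier1, a corepressor subunit, stood at 749, 667 and 1110.2 against 395, 473 and 279 CPM (1.14 ± 0.21, adjusted p = 0.0247), and the zinc finger gene Zfp664 at 177, 184 and 147 against 111, 98.6 and 83.9 CPM (0.79 ± 0.13, adjusted p = 0.019). Klhl7, an adaptor of a ubiquitin ligase, and Prdx2, a peroxide reductase, were higher by 0.83 and 0.65 on the log2 scale, with adjusted p-values of 0.0203 and 0.0331. Both stayed under 0.05 with the B cell level (0.0378 and 0.0496).

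The named higher genes with the largest fold changes were uneven among the S62A lymphomas. Rfx4, an RFX-family transcription factor best known from brain and testis, stood at 0.764, 14.2 and 109 CPM in S62A and 0, 0.32 and 0.173 CPM in T58A lymphomas (7.88 ± 1.65, adjusted p = 0.0319). S62A lymphoma 1 was near the T58A libraries and S62A lymphoma 3 supplied most of the reads. The transcript AI506816 stood at 119, 111 and 1.27 against 0, 0.852 and 0.288 CPM (7.61 ± 1.53, adjusted p = 0.0302), here with S62A lymphomas 1 and 2 high and S62A lymphoma 3 low. With the B cell level in the fit neither passed, though the fold changes were 8.60 and 8.12 (adjusted p = 0.185 and 0.195).

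Iron uptake and metabolism added single genes. Tfrc, the transferrin receptor, stood at 1319.9, 1144 and 2573 CPM in S62A and 808, 409.9 and 387 CPM in T58A lymphomas (1.65 ± 0.35, adjusted p = 0.0348), while Trf, transferrin itself, was lower at 63.4, 85.8 and 60.1 against 177, 114 and 261 CPM (−1.40 ± 0.26, adjusted p = 0.0239). They were the called members of 17 iron genes. Tpi1, a glycolytic isomerase, was the 1 called gene of 24 in glycolysis (422, 384 and 386 against 278, 227 and 277 CPM; 0.61 ± 0.15, adjusted p = 0.0486), and Umps, an enzyme of pyrimidine synthesis, the 1 of 25 in nucleotide synthesis (103, 103 and 98.4 against 78.6, 74.6 and 78.8 CPM; 0.39 ± 0.09, adjusted p = 0.0465). Zmat3, a p53 target (0.71 ± 0.15, adjusted p = 0.0353), Bnip3l, a BCL2-family protein of mitochondrial clearance (0.48 ± 0.12, adjusted p = 0.0486), and the immediate early gene Egr1 (102, 94.6 and 45.3 against 40.5, 36.2 and 34.4 CPM; 1.12 ± 0.24, adjusted p = 0.0353) were each the 1 called member of lists of 25, 19 and 20 genes. Of these genes only Trf kept its call with the B cell level (adjusted p = 0.0153). The fold changes of the others were 2.10 (Tfrc), 0.45 (Tpi1), 0.35 (Umps), 0.76 (Zmat3), 0.55 (Bnip3l) and 1.16 (Egr1) in that fit. For lists of 19 to 25 genes, 1 called member is near the background of 3.15% called over all genes tested.

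The machinery that acts on MYC differed in few members. Of 20 genes of the MYC, MAX and MXD network 0 were higher and 1 lower (median 0.05): Bin1, an adaptor that binds MYC and restrains it, stood at 22.2, 29.6 and 21.3 CPM in T58A and 14, 10.8 and 7.47 CPM in S62A lymphomas (−1.18 ± 0.22, adjusted p = 0.0237). With the B cell level in the fit Bin1 was at −0.96 (adjusted p = 0.167), and the masses held 118 ± 15.1 CPM (SD, n = 3). Max, the DNA-binding partner, stood at 156, 158 and 157 CPM in T58A and 161, 159 and 183 CPM in S62A lymphomas. Mnt, an antagonist, stood at 55.3, 58 and 58.3 CPM in T58A and 63.9, 66.9 and 43.2 CPM in S62A lymphomas. Neither passed the test. For a list of 20 genes, 1 called member is near the background of 3.15%.

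Of 36 regulators of MYC phosphorylation and turnover 1 was higher and 0 lower (median 0.19). Ppp2r5d, a regulatory B56 subunit of PP2A, stood at 138, 130.4 and 150.1 CPM in S62A and 93.7, 89.3 and 104 CPM in T58A lymphomas (0.55 ± 0.10, adjusted p = 0.0247; 0.40, adjusted p = 0.23 with the B cell level). Gsk3b, the kinase of threonine 58, stood at 104, 129 and 107 against 105, 88.3 and 89.1 CPM (0.27 ± 0.13, adjusted p = 0.23), and Fbxw7, the ubiquitin ligase subunit, at 52.2, 55.2 and 67.3 against 57.7, 62.7 and 52.9 CPM (0.01 ± 0.20, adjusted p = 0.981). Cdk2, a kinase of serine 62, was at 0.52 ± 0.15 (adjusted p = 0.0856). These values are RNA levels, and 1 of 36 is close to the background of 3.15%.

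Lists of growth programmes had no member or 1 called. Ribosome biogenesis had 0 of 35 called (median 0.14), with levels of 7.28, 7.26 and 7.29 log2 CPM in S62A and 7.24, 7.03 and 7.13 in T58A lymphomas, all above control tissue (6.19, 6.12 and 6.09). DNA replication had 0 of 29 called, although 28 of 29 values were above 0 (median 0.24), mitosis 0 of 28 (median 0.22), and DNA damage repair 0 of 27 (median 0.29). The lists of amino acid and one-carbon metabolism and of the mitochondrial respiratory chain had 26 members each and 0 called. D cyclins, their kinases and inhibitors (21 genes), double-positive thymocyte genes (19) and imprinted growth genes (18) also had 0 called. A count of 0 does not show that the groups were alike, since 3654 genes had an unadjusted p under 0.05 and DESeq2 called 617 higher and 1137 lower with all libraries. Among the 41 lists 15 had no member called.

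Promoters were searched for the E-box CACGTG, the core site that MYC and MAX bind, which reads the same on both strands. Windows ran from 250 bases before to 50 bases after the start site (RefSeq, GRCm38.p6), and a gene counted if any of its promoters held the E-box. This was so for 9.71% of the 103 matched higher genes and 9.24% of the 249 matched lower genes, against 10.9% of the 11772 matched genes tested. Neither share exceeds that of the genes tested. Counted by single promoter, an unlike measure, 7.15% of all 32851 promoters held it. Eif5a2, higher in S62A, and Bmp4, lower in S62A, are shown because they carry the E-box (capitals) and moved in opposite directions. Eif5a2 lies on the plus strand (chr3:28781027-28781326) with matches that begin 142 and 117 bases before the start site, and Bmp4 on the minus strand (chr14:46390620-46390919) with a match 188 bases before it.
Eif5a2 promoter: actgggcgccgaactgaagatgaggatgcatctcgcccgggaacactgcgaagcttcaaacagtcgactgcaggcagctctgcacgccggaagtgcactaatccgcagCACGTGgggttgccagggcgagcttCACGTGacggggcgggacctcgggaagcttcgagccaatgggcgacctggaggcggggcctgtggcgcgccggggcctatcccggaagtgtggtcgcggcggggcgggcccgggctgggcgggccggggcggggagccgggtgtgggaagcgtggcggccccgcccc
Bmp4 promoter: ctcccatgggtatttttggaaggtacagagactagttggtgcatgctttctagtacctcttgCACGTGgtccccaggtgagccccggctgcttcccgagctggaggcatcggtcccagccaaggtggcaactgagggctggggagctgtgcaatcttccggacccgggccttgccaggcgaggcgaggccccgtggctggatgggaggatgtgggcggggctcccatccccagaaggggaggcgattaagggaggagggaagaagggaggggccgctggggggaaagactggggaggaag

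Whole chromosomes were compared by their median levels, a description added after the values were seen. For each library the median over the genes of a chromosome (mean of at least 5 CPM) was taken as a log2 difference from control, centred on the median of that library. Chromosome 15, which carries Myc, stood at −0.04, 0.14 and 0.39 in T58A and −0.02, −0.13 and −0.16 in S62A lymphomas, so that T58A lymphoma 3 and, less so, T58A lymphoma 2 were above the others. On that chromosome 1 of 627 tested genes was higher and 29 lower (4.63%) in S62A, against 0.859% higher and 2.29% lower over all genes. Calls are given for chromosome 15 only, and whether its share stands out among chromosomes was not tested. Chromosome 17 stood at −0.21, −0.20 and 0.16 in S62A and −0.14, −0.04 and −0.25 in T58A lymphomas, with S62A lymphoma 3 alone above 0. Chromosome 6 stood at 0.36, 0.26 and 0.38 in T58A and 0.07, 0.39 and 0.36 in S62A lymphomas, with S62A lymphoma 1 low. Chromosome 18 was above 0 in all 6 libraries (0.19, 0.23 and 0.22 in T58A and 0.26, 0.12 and 0.33 in S62A). The other 16 chromosomes ranged from −0.21 to 0.20 over the 6 libraries. DNA copy number was not measured.

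**Figure D5:**
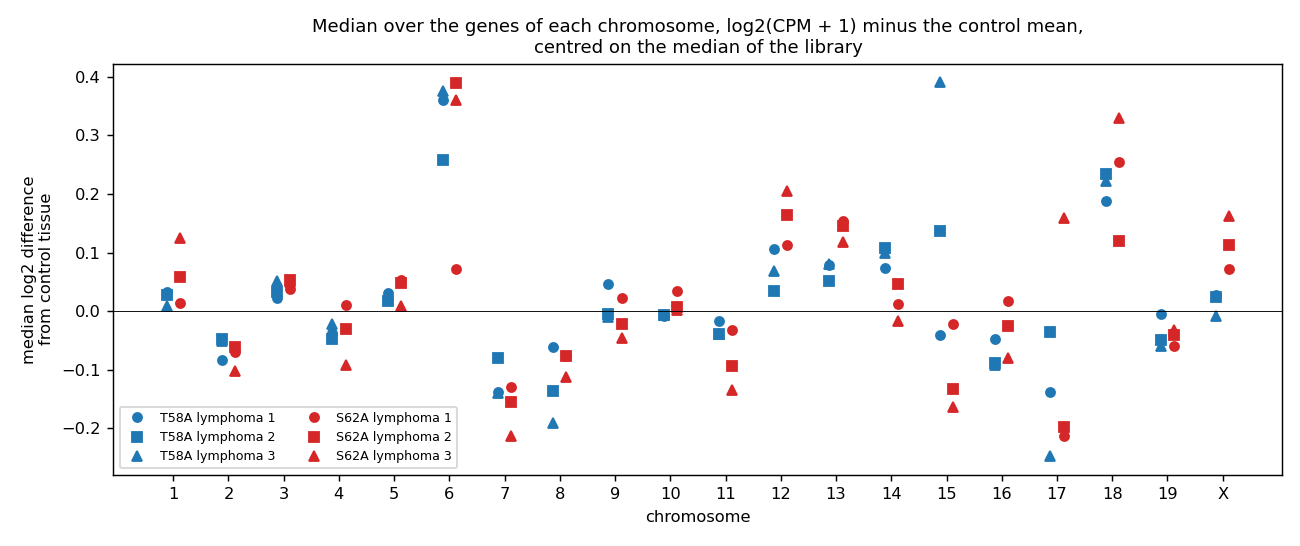
Median log2 difference from control tissue over the genes of each chromosome (vertical axis) in the 6 lymphoma libraries, centred on the median of each library. Chromosome 15 reaches 0.39 in T58A lymphoma 3 and lies below 0 in all S62A lymphomas, and chromosome 6 lies between 0.26 and 0.39 in every lymphoma except S62A lymphoma 1 at 0.07.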

How the data were processed

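The series holds poly(A) RNA libraries made with a stranded kit and sequenced, per the labels' protocols. The submitters' processing notes name bcl2fastq 2.20.0.422, Bowtie 1.0.0, DESeq2 and the build mm9; the counter, its strand setting and its treatment of multiply mapped reads are named in no source used here, so overlapping genes and near-identical copies are uncertain. Counts were deposited by the authors as whole reads of each transcript without normalization, and the main test used these. FPKM values, computed per transcript by the authors, were deposited beside the counts and entered only 2 alternative fits. Coordinates are those of the deposited tables, with 1 added to each start, taken as counted from 0.

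For each symbol the transcript with the most reads over the 12 libraries was kept (24478 of 36141 transcripts). Genes were filtered with filterByExpr by group (minimum count 10), scaled with TMM and tested with edgeR 4.0.16 (R 4.3.3), glmQLFit and glmQLFTest, with group as the only term over all 12 libraries and Benjamini-Hochberg adjustment over 15606 genes. The step was tested on simulated data. Fold changes are log2, S62A minus T58A, ± SE. Depth in all libraries ran from 9577373 to 22437969 reads. Marker levels are mean log2 CPM with a prior count of 2. Bounds for genes at 0 reads use a floor of 3 counts over the 3 libraries of a group, and intervals are 95% and cover counting error only. The p-values speak only of the spread between libraries, which may be technical, since no source ties each library to its own animal. Within each group some genes differed 10-fold or more between libraries, so no library was taken as a copy of another.

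Named genes were Myc, up to 2 called members per list and direction, called members of the 2 MYC lists, and up to 12 genes per direction with the largest change among called genes with a mean of at least 20 CPM in a group, no overlap and a call kept with both marker levels. No gene met the last condition, so those keeping their call with the B cell level alone were named, with the 5 largest per direction among the others and the genes with adjusted p under 0.01. Other genes named beside them were chosen after their values were seen. Some members of these lists are not reported here. The members and lists were chosen with earlier results of these data known. Alternatives were DESeq2 1.42.0, limma 3.58.1 on log2(FPKM + 1) and log2(FPKM + 0.1), library size scaling, no filter, the 6 lymphoma libraries alone, marker levels as covariates, and libraries left out.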

Additional observations from a re-analysis of the deposited data

How the results depend on the processing

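Against 134 genes higher and 358 lower in S62A lymphomas, edgeR called 0 and 0 with the B cell and granulocyte levels as covariates, and 0 and 0 with only the 6 lymphoma libraries. It called 40 higher and 105 lower with the B cell level, 72 higher with the macrophage level, 86 higher with library size only, and 71 higher without T58A lymphomas 1 and 2. DESeq2 called 617 and 1137, and with both levels 55 and 56. Limma called 53 higher on log2(FPKM + 1) and 61 on log2(FPKM + 0.1). Leaving out each lymphoma in turn gave 33 to 211 higher and 106 to 572 lower genes. Of called genes 0 kept their call in edgeR with both levels, 76 with the B cell level alone and 29 in DESeq2 with both. The macrophage fit and the DESeq2 fits on 6 libraries and with both levels were chosen after seeing the data. Btla alone reversed among named genes, to 0.30 with both levels, 0.24 with the B cell level and 0.28 in DESeq2 with both, and the cause was not tested. Over 61 named genes and their alternatives, 691 of 1096 values kept direction and side of the threshold, and 402 kept direction only. No paired analysis was possible because replicate numbers were given in the order of deposit and pair no libraries. Depth limits the genes at 0 or a few reads in S62A lymphomas, whose folds are bounds or have wide counting intervals.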

Other observations

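Genes with a Zfp symbol, most of them zinc finger transcription factors, made up 21 of the 134 genes higher in S62A lymphomas (15.7%) and 1 of the 358 lower genes, against 355 of the 15606 genes tested (2.27%). The group was chosen after the values were seen and was not tested. Of the 355 genes 279 were above 0, with a median log2 fold change of 0.37, against −0.01 over all genes tested. The median was 0.30 with library size only, 0.38 with the B cell level in the fit, 0.37 with only the 6 lymphoma libraries and 0.33 without T58A lymphomas 1 and 2. The number called higher was 13, 3, 0 and 5 in those fits.

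The neighbours of Glo1 within 500 kb on chromosome 17 were looked at after its values were seen. Dnah8, a dynein heavy chain gene, stood at 220.2, 64.4 and 118 CPM in S62A and 41.6, 64 and 51.4 CPM in T58A lymphomas (1.36 ± 0.35, adjusted p = 0.0617). Btbd9, on the other side, stood at 71.6, 62.6 and 70.1 against 46.3, 56.8 and 56.1 CPM (0.36 ± 0.12, adjusted p = 0.115). The transcript 1700097N02Rik, between Glo1 and Dnah8, stood at 58, 43.7 and 34.7 against 20.1, 62.3 and 43.5 CPM (0.12 ± 0.34, adjusted p = 0.87), with T58A lymphoma 2 highest. Abcg1 and Gm6402 were at 0.45 and 0.37, Umodl1 had few or no reads in these libraries, and none of the 6 neighbours passed the test.

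Between S62A lymphomas, library 3 held little of several T cell surface genes (Cd5 at 235, 88.6 and 7.13 CPM and Cd8a at 386, 1359 and 95 CPM in libraries 1, 2 and 3) and the most Il2ra, at 500.2 CPM. Library 1 held the most Ncr1, a receptor of natural killer cells, at 14, 0.216 and 1.33 CPM against 0.52, 1.12 and 0.115 CPM in T58A lymphomas.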
